A study of Marchantia polymorpha with 12 samples.

Results

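A set of 82 autosomal genes of the liverwort Marchantia polymorpha was expressed in both wild types, judged by group means, and had a mean of at most 0.25 of the wild-type level in both mutant lines of the study. The genes were chosen from the measured levels themselves. Estimated counts were summed to genes, divided by the library total and scaled to a total of 1000000 counts (CPM), and averaged within each group. A gene was taken if it had at least 5 CPM in each wild type, a mean under 1000 CPM over both, a ratio of Tak-2 to Tak-1 between 0.5 and 2, and ratios of mutant to wild type of at most 0.25 in both lines. Of the 18336 genes in the table, 9400 autosomal genes met the criteria on the wild types, and 82 of these (0.872%) met both ratios. A further 61 genes met the ratio in Mpfer-1 alone and 69 in the Mpmri-1-labelled libraries alone.

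The RNA came from thalli with their rhizoids, grown from gemmae for 3 weeks on cellophane over solid medium, in 4 groups of 3 libraries. Mpfer-1 is a male line labelled as a knockdown of the receptor-like kinase gene MpFER and was set against the male wild type Tak-1. Mpmri-1 is a female line labelled as a knockdown of the kinase gene MpMRI and was set against the female wild type Tak-2. Rhizoids of both lines are short and burst. The study asked which pathways depend on the MpFER/MpMRI pair or stand in for it. Each targeted gene is represented by 1 line, so the line, the targeted gene and the sex cannot be told apart when the 2 effects are compared. No label says that replicates came from separate cultures, so the spread between them may be technical. Library totals ran from 25548038 to 35313222 estimated counts.

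The targeted genes were read first, as a check of the labels. MpFER (Mp4g15890, listed as MpFERONIA/MpTHESEUS) had 121, 102 and 111 CPM in Mpfer-1, against 178, 178 and 153 CPM in Tak-1. MpMRI (Mp7g17560) had 558, 569.6 and 712 CPM in the Mpmri-1-labelled libraries, against 248, 257 and 260.1 CPM in Tak-2. The transcript of MpFER was thus lower in its line without overlap, while that of MpMRI was higher in the libraries labelled as its knockdown. That direction goes against the label, and every value that rests on those libraries carries this doubt.

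In flowering plants FERONIA is a receptor kinase of the plasma membrane that senses the state of the cell wall through its extracellular part and through secreted RALF peptides, and MARIS is a cytoplasmic kinase that acts after it to keep tip-growing cells such as root hairs from bursting. Much of what is known to follow is chemistry at the cell surface: reactive oxygen, calcium, the pH of the wall and the cross-linking of its polymers and phenolics. Several families among the 82 genes bear on this chemistry. Class III peroxidases are secreted haem enzymes that use hydrogen peroxide to oxidise phenolics and can stiffen or loosen the wall. Polyphenol oxidases are copper enzymes that oxidise phenols to quinones, and plasma membrane proton ATPases acidify the wall. Only 21 of the 82 genes carry a symbol in the reference table, and the other 61 are given by their locus identifiers alone.

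Together the 82 genes summed to 557, 554 and 623 CPM in Mpfer-1, against 3525, 3495 and 3542 CPM in Tak-1. In the Mpmri-1-labelled libraries they summed to 542, 516 and 686 CPM, and in Tak-2 to 3992, 3766 and 4268 CPM. The 3 libraries of each mutant line therefore sit far below the 3 of their wild type, which follows from the rule. The samples are whole tissue, in which fewer cells of a type and less RNA per cell cannot be told apart. The median ratio was 0.133 in Mpfer-1 and 0.158 in the Mpmri-1-labelled libraries, with lowest values of 0.00517 and 0.0167. On the log2 scale the medians were -2.91 and -2.66, beside 0.18 and -0.22 over the 9400 genes that met the wild-type criteria. Ratios were lower in Mpfer-1 for 48 genes and lower in the Mpmri-1-labelled libraries for 34. Both ratios were under 0.1 for 10 genes, and the one nearer to 1 was over 0.2 for 35.

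**Figure D1:**
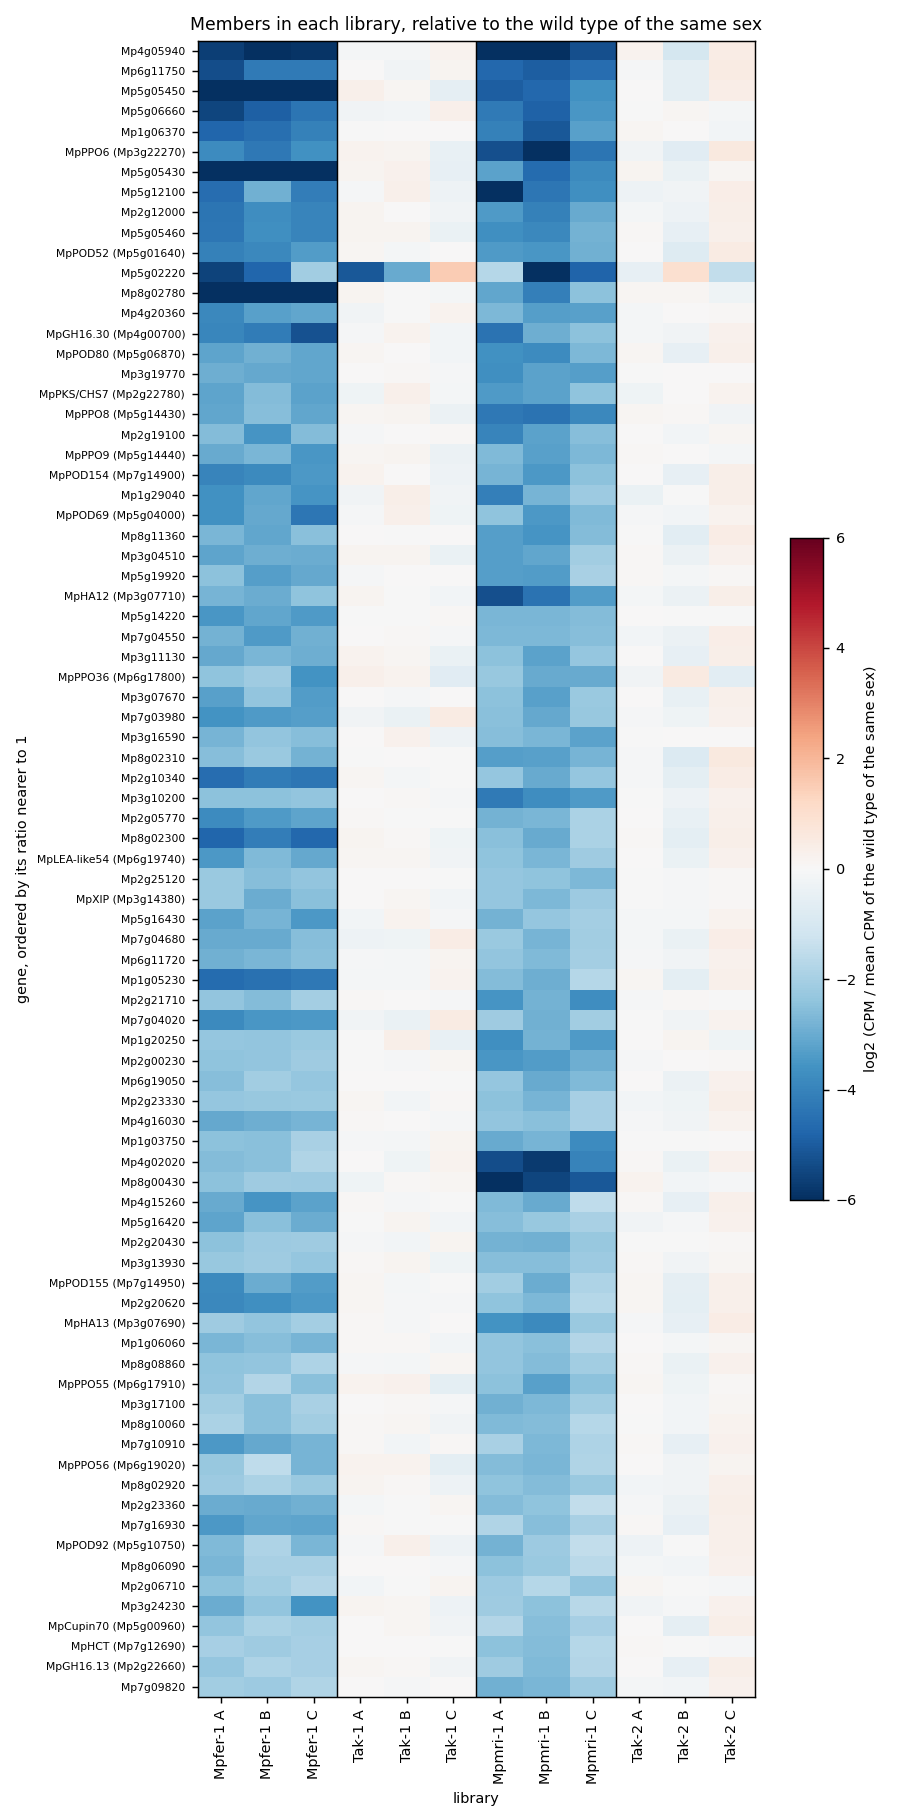
Level of each of the 82 genes in each of the 12 libraries, as log2 of its CPM over the mean CPM of the wild type of the same sex, with genes ordered by the ratio nearer to 1 and colours ending at -6 and 6. Both blocks of mutant libraries are blue for all genes, and Mp5g02220 is the one row where the wild-type libraries also differ strongly among themselves.

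Wild-type levels of the 82 genes lay between 6.26 and 329 CPM with a median of 16.2 CPM. Of the set, 11 genes were over 100 CPM and 47 under 20 CPM. Levels were higher in Tak-2 for 30 genes and higher in Tak-1 for 52, within the window that the rule allows. For 81 genes no Mpfer-1 library reached the lowest Tak-1 library, and for all 82 no Mpmri-1-labelled library reached the lowest Tak-2 library. Over all 14044 genes tested in the fit, 22.8% were lower without overlap in Mpfer-1 and 39.1% in the Mpmri-1-labelled libraries. The rule nearly fixes the counts of the set, and nothing is read from them. The exception was Mp5g02220, picked out after its values were seen. It had 0.31, 0.53 and 3.4 CPM in Mpfer-1, against 0.42, 1.76 and 41 CPM in Tak-1. It had 6.14, 0.207 and 0.707 CPM in the Mpmri-1-labelled libraries, against 14.1, 39 and 7.2 CPM in Tak-2. A single Tak-1 library carries its Tak-1 mean, so its place among the 82 genes rests on that library.

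The libraries of a group differed somewhat among themselves. In the Mpmri-1-labelled libraries, replicate C was the highest of the 3 for 65 of 82 genes and replicate B the lowest for 51. In Tak-2, replicate C was the highest for 65 genes and replicate B the lowest for 58. The median level relative to the group mean was 0.793 in replicate B and 1.28 in replicate C of the Mpmri-1-labelled libraries, and 0.856 and 1.20 in those of Tak-2. In Tak-1, replicate C was the lowest for 47 genes. The median coefficient of variation was 20.5% in Mpfer-1 and 12% in Tak-1, and 31.9% in the Mpmri-1-labelled libraries and 20.5% in Tak-2.

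**Figure D2:**
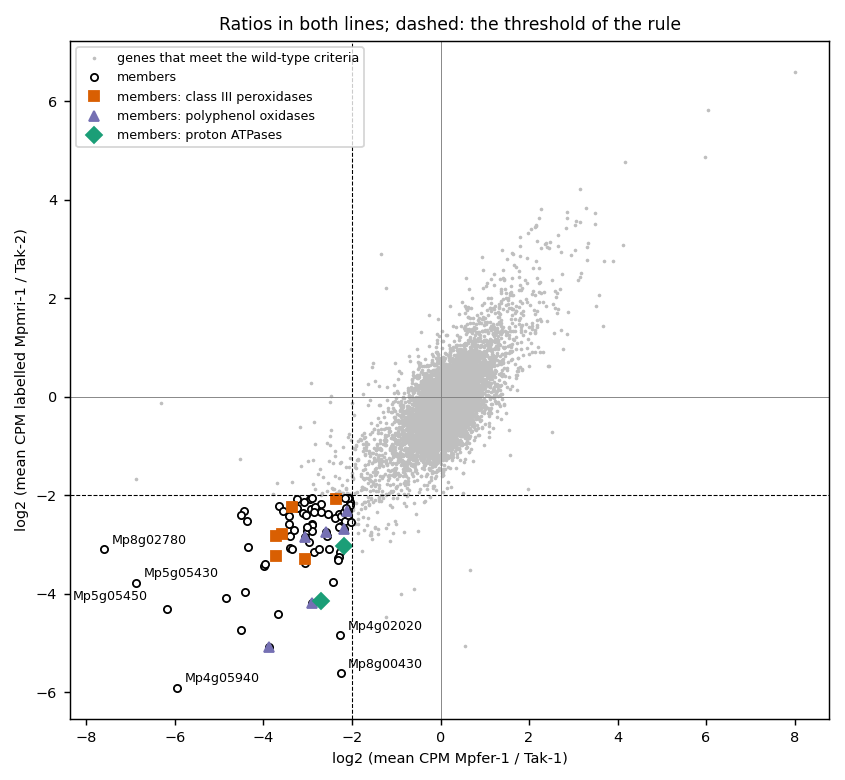
Log2 ratio of mean CPM in the Mpmri-1-labelled libraries over Tak-2 against that in Mpfer-1 over Tak-1, for the genes that met the wild-type criteria (grey dots) and the 82 genes (open circles and coloured symbols), with dashed lines at a ratio of 0.25. The set fills the lower left corner, most of it close to the dashed lines, and Mp8g02780, Mp5g05430 and Mp5g05450 lie far to the left while Mp8g00430 and Mp4g02020 lie far down.

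Class III peroxidases made up 6 of the 82 genes. MpPOD154 (Mp7g14900) had 2.46, 2.75 and 3.51 CPM in Mpfer-1, against 45.3, 39 and 31.2 CPM in Tak-1. It had 5.03, 3.13 and 6.37 CPM in the Mpmri-1-labelled libraries, against 34.9, 24.4 and 44.3 CPM in Tak-2. All 6 mutant values are under 7 CPM and all 6 wild-type values over 24 CPM. MpPOD155 (Mp7g14950), which lies a few loci away, had 2.26, 4.12 and 3.12 CPM in Mpfer-1, against 34.8, 30.1 and 31.7 CPM in Tak-1. It had 5.41, 2.93 and 6.25 CPM in the Mpmri-1-labelled libraries, against 24.9, 15.8 and 28.1 CPM in Tak-2. Both peroxidases were lower in all 3 libraries of each mutant line, and further below the wild type in Mpfer-1. MpPOD80 (Mp5g06870) had 3.69, 4.51 and 3.82 CPM in Mpfer-1, against 36.2, 33.8 and 29.8 CPM in Tak-1. It had 2.23, 2.04 and 4.27 CPM in the Mpmri-1-labelled libraries, against 29.8, 19.4 and 34 CPM in Tak-2. In this gene the libraries of each mutant line again lay apart from those of the wild type. MpPOD52 (Mp5g01640) had 1.002, 1.15 and 1.64 CPM in Mpfer-1, against 18.1, 15.2 and 16.7 CPM in Tak-1. It had 1.28, 1.18 and 1.82 CPM in the Mpmri-1-labelled libraries, against 13.7, 7.79 and 18.5 CPM in Tak-2, an amount 9.34-fold lower, beside 13.2-fold lower in Mpfer-1. The weakest of the family was MpPOD92 (Mp5g10750), with ratios of 0.196 in Mpfer-1 and 0.239 in the Mpmri-1-labelled libraries. MpPOD69 (Mp5g04000), the only gene with a symbol that the rule for named genes leaves out, was added after its values were seen and had ratios of 0.0838 in Mpfer-1 and 0.146 in the Mpmri-1-labelled libraries.

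Another 6 of the 82 genes are polyphenol oxidases. MpPPO8 (Mp5g14430) had 3.42, 4.96 and 3.39 CPM in Mpfer-1, against 31.9, 33.5 and 23 CPM in Tak-1. It had 2.42, 2.22 and 3.32 CPM in the Mpmri-1-labelled libraries, against 51.5, 50.5 and 41.8 CPM in Tak-2. Every mutant library was below every wild-type library. Its neighbour MpPPO9 (Mp5g14440) had 4.08, 4.86 and 2.93 CPM in Mpfer-1, against 36, 37 and 25.5 CPM in Tak-1. It had 5.43, 3.62 and 5.28 CPM in the Mpmri-1-labelled libraries, against 36.5, 35.1 and 31.5 CPM in Tak-2. The 2 adjacent genes had ratios of 0.133 and 0.12 in Mpfer-1, whereas in the Mpmri-1-labelled libraries the ratio of MpPPO8 was 0.0554 and that of MpPPO9 was 0.139. MpPPO6 (Mp3g22270) was the most strongly lowered of the family. It had 1.08, 0.765 and 1.22 CPM in Mpfer-1, against 17.2, 17 and 11 CPM in Tak-1. It had 0.299, 0.178 and 0.545 CPM in the Mpmri-1-labelled libraries, against 9.82, 7.05 and 17.4 CPM in Tak-2, which is 33.6-fold lower. MpPPO56 (Mp6g19020) was the least lowered of the 6. It had 6.81, 11.3 and 4.76 CPM in Mpfer-1, against 38.4, 38.4 and 22 CPM in Tak-1. It had 4.5, 4.08 and 7.67 CPM in the Mpmri-1-labelled libraries, against 27.8, 23.1 and 29.8 CPM in Tak-2. MpPPO36 (Mp6g17800) and MpPPO55 (Mp6g17910) had ratios of 0.166 and 0.221 in Mpfer-1 and 0.149 and 0.156 in the Mpmri-1-labelled libraries. Among replicates, 5 of the 6 genes were highest in Mpfer-1 replicate B and all 6 were lowest in Tak-1 replicate C, which was also lowest for 47 of the whole set. Likewise 5 of the 6 were lowest in replicate B of the Mpmri-1-labelled libraries, as were 51 of the whole set, whereas in Tak-2 the lowest library was B for 3 of them and C for 3.

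**Figure D3:**
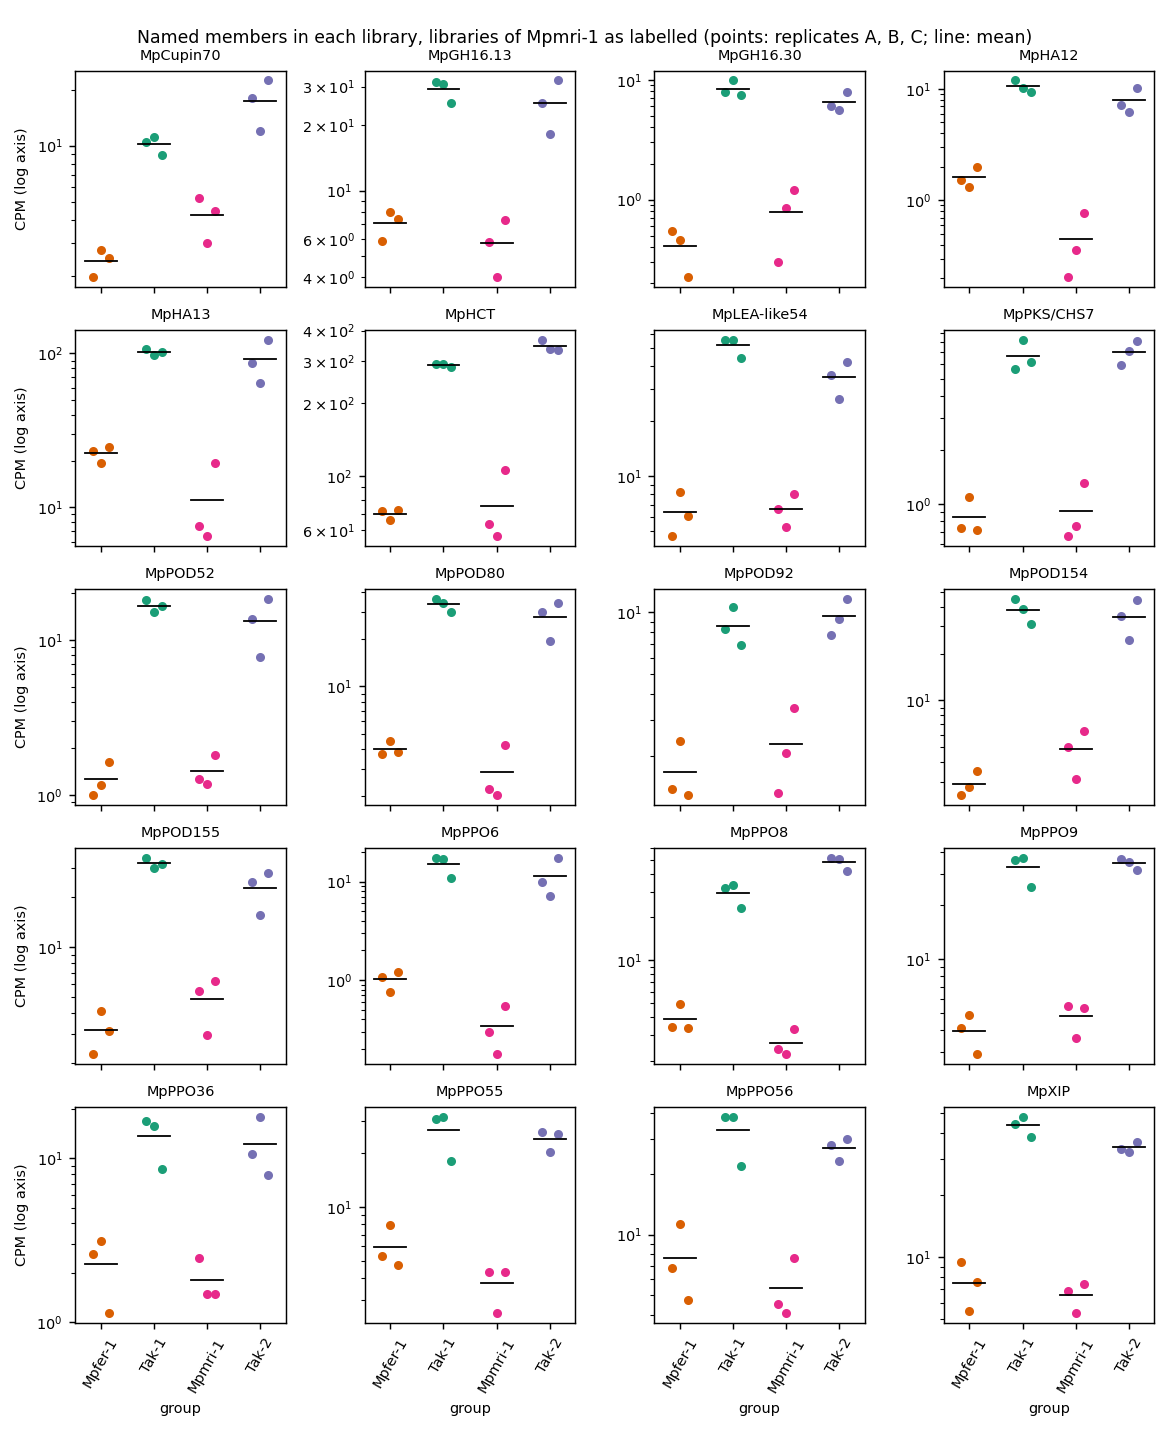
CPM in each library (log axis, a separate range per panel) of 20 genes with a symbol, with a point per replicate and a line at the group mean. In every panel the 3 Mpfer-1 points lie under the 3 Tak-1 points and the 3 points labelled Mpmri-1 under the 3 Tak-2 points, with MpPPO6 at 1.02 CPM in Mpfer-1 and 15.1 CPM in Tak-1 as a wide gap and MpGH16.13 at 7.11 and 29.1 CPM as a narrow one.

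Proton ATPases, which pump protons out of the cell and so energise uptake and acidify the wall, gave 2 of the 82 genes. In flowering plants this pump is one of the proteins that RALF peptides inhibit through FERONIA. MpHA13 (Mp3g07690) had 23.2, 19.6 and 24.8 CPM in Mpfer-1, against 107, 97.1 and 103 CPM in Tak-1. It had 7.63, 6.54 and 19.5 CPM in the Mpmri-1-labelled libraries, against 87.1, 64 and 123 CPM in Tak-2. Replicate C of the Mpmri-1-labelled libraries was the highest of its group for this gene, and its value still lay well under the lowest Tak-2 library. MpHA12 (Mp3g07710) had 1.52, 1.32 and 1.98 CPM in Mpfer-1, against 11.9, 10.3 and 9.34 CPM in Tak-1. It had 0.206, 0.361 and 0.775 CPM in the Mpmri-1-labelled libraries, against 7.23, 6.23 and 10.2 CPM in Tak-2.

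MpXIP (Mp3g14380) encodes an X-intrinsic protein, of an aquaporin subfamily that Arabidopsis lacks. It had 9.44, 5.5 and 7.56 CPM in Mpfer-1, against 44.5, 48 and 38.4 CPM in Tak-1. It had 6.88, 5.36 and 7.43 CPM in the Mpmri-1-labelled libraries, against 33.7, 32.4 and 36.4 CPM in Tak-2. The gene was 5.82-fold lower in Mpfer-1 and 5.21-fold lower in the Mpmri-1-labelled libraries.

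MpHCT (Mp7g12690) encodes a hydroxycinnamoyl transferase, an enzyme of the phenylpropanoid pathway that makes precursors of wall and cuticle phenolics. It had 71.7, 66.1 and 72.2 CPM in Mpfer-1, against 291, 291 and 283 CPM in Tak-1. It had 63.7, 56.7 and 106 CPM in the Mpmri-1-labelled libraries, against 368, 337 and 333 CPM in Tak-2. All mutant libraries were below all wild-type libraries of their sex, and this gene was also among the 3 nearest to the threshold. MpPKS/CHS7 (Mp2g22780) belongs to the chalcone synthase-like polyketide synthases, which build flavonoid and bibenzyl skeletons. It had 0.737, 1.09 and 0.716 CPM in Mpfer-1, against 5.63, 8.26 and 6.2 CPM in Tak-1. It had 0.663, 0.756 and 1.32 CPM in the Mpmri-1-labelled libraries, against 5.92, 7.17 and 8.08 CPM in Tak-2.

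Glycoside hydrolase family 16 includes the enzymes that cut and rejoin xyloglucan and related wall glucans. MpGH16.30 (Mp4g00700) had 0.551, 0.458 and 0.227 CPM in Mpfer-1, against 7.95, 9.88 and 7.43 CPM in Tak-1. It had 0.299, 0.858 and 1.2 CPM in the Mpmri-1-labelled libraries, against 6.03, 5.65 and 7.88 CPM in Tak-2. Replicate A was the lowest Mpmri-1-labelled library for this gene. MpGH16.13 (Mp2g22660) had 5.89, 8.00 and 7.42 CPM in Mpfer-1, against 31.4, 30.8 and 25.2 CPM in Tak-1. It had 5.8, 4.02 and 7.37 CPM in the Mpmri-1-labelled libraries, against 25.3, 18.1 and 32 CPM in Tak-2. The first of these was 20.4-fold lower in Mpfer-1 and the second 4.1-fold. MpLEA-like54 (Mp6g19740), of the late embryogenesis abundant proteins that accumulate in drying tissue, had 4.72, 8.22 and 6.09 CPM in Mpfer-1, against 55.9, 55.8 and 44.2 CPM in Tak-1. It had 6.58, 5.27 and 8.04 CPM in the Mpmri-1-labelled libraries, against 35.8, 26.4 and 42 CPM in Tak-2. MpCupin70 (Mp5g00960), with the barrel fold of germins and seed storage proteins, had ratios of 0.236 in Mpfer-1 and 0.242 in the Mpmri-1-labelled libraries.

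Of the 10 genes with the highest wild-type levels, MpHCT alone carried a symbol. Mp1g03750 had 45.9, 45.1 and 66 CPM in Mpfer-1, against 242, 233 and 287 CPM in Tak-1. It had 49.3, 58.6 and 29.4 CPM in the Mpmri-1-labelled libraries, against 399.8, 397 and 415 CPM in Tak-2. Mp5g06660 combined a high wild-type level with low ratios. It had 1.9, 2.86 and 4.13 CPM in Mpfer-1, against 74, 77 and 106 CPM in Tak-1. It had 8.01, 5.33 and 13.4 CPM in the Mpmri-1-labelled libraries, against 150.3, 167 and 138 CPM in Tak-2, so that it was 28.9-fold lower in Mpfer-1 and 17-fold lower in the Mpmri-1-labelled libraries. Mp2g21710 had 45.4, 38.4 and 57.4 CPM in Mpfer-1, against 242, 239.9 and 221 CPM in Tak-1. It had 27.8, 44.9 and 24.5 CPM in the Mpmri-1-labelled libraries, against 308, 341 and 322 CPM in Tak-2, so its ratio of means was lower there. The log2 effect there minus that in Mpfer-1 was -0.68 and did not pass the test (edgeR's quasi-likelihood fit, p adjusted by Benjamini-Hochberg = 0.0717). Mp3g19770 varied little within its groups. It had 16.3, 14.8 and 14.2 CPM in Mpfer-1, against 126, 132 and 118 CPM in Tak-1. It had 11.5, 16.2 and 15.2 CPM in the Mpmri-1-labelled libraries, against 147, 150.2 and 149 CPM in Tak-2. With these, the other 8 (Mp2g21710, Mp2g25120, Mp2g20430, Mp2g00230, Mp3g17100, Mp5g19920, Mp3g19770 and MpHCT) were between 4.12-fold and 8.29-fold lower in Mpfer-1. In the Mpmri-1-labelled libraries the same genes were between 4.58-fold and 10.4-fold lower.

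The 10 genes with the lowest values of the ratio nearer to 1 were Mp4g05940, Mp6g11750, Mp5g05450, Mp5g06660, Mp1g06370, MpPPO6, Mp5g05430, Mp5g12100, Mp2g12000 and Mp5g05460. Mp4g05940 was first in this order. It had 0.157, 0.0886 and 0.133 CPM in Mpfer-1, against 7.07, 7.16 and 9.11 CPM in Tak-1. It had 0.0738, 0.0949 and 0.179 CPM in the Mpmri-1-labelled libraries, against 7.94, 3.29 and 9.55 CPM in Tak-2. Its mutant values rest on few reads, 11.8 estimated counts over the 3 Mpfer-1 libraries and 11 over the 3 labelled Mpmri-1. No gene of the set was at 0 in any library, and the lowest library value was 1.97 estimated counts, of this same gene. Mp1g06370 had 0.413, 0.494 and 0.68 CPM in Mpfer-1, against 11.1, 11.3 and 11.3 CPM in Tak-1. It had 1.08, 0.533 and 1.9 CPM in the Mpmri-1-labelled libraries, against 19.5, 18.8 and 16.3 CPM in Tak-2. Mp5g12100 had ratios of 0.0788 in Mpfer-1 and 0.0474 in the Mpmri-1-labelled libraries, and Mp2g12000 had 0.0628 in Mpfer-1 and 0.0923 in the Mpmri-1-labelled libraries.

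At the threshold, the 3 genes just inside were Mp7g09820, MpGH16.13 and MpHCT, with weaker ratios of 0.245, 0.244 and 0.243. The 3 genes just outside, with all other criteria met, were Mp8g10590, Mp4g00100 and Mp5g01070, at 0.251, 0.253 and 0.254. Mp5g01070 had a ratio of 0.0728 in Mpfer-1 and was left out by that in the Mpmri-1-labelled libraries. The limit of 0.25 thus cuts through a continuous range of values.

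Some loci of the set lie near each other, a feature the rule did not use. Of the 82 genes, 22 lay within 5 genes of another by locus number, in 10 runs. No such count was made for other genes among the 9400 that met the wild-type criteria, so nothing is read from it. By chromosome, the set held between 0.331% of the genes that met the wild-type criteria (6 of 1811 on chromosome 1) and 1.59% (17 of 1072 on chromosome 5). Similar genes can share reads, so levels are less certain for genes with fractional counts, which occur both in and outside the runs.

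The run on chromosome 3 held Mp3g07670, MpHA13 and MpHA12, with the proton ATPase MpHA11 between the last 2. MpHA11 (Mp3g07700) had 60.6, 55.2 and 83.6 CPM in Mpfer-1, against 199.8, 163 and 186 CPM in Tak-1. It had 14.7, 17.6 and 35.3 CPM in the Mpmri-1-labelled libraries, against 71.8, 54.1 and 96.4 CPM in Tak-2. It was lower in both lines, with log2 changes of -1.64 in Mpfer-1 and -1.60 in the Mpmri-1-labelled libraries (edgeR's quasi-likelihood fit, p adjusted by Benjamini-Hochberg = 0.000305 and 0.000343), but did not reach the ratio of mutant to wild type in the rule. With means of 74.1 CPM in Tak-2 and 182.9 CPM in Tak-1, it also missed the window on the wild types. On chromosome 6, MpPPO56 and Mp6g19050 enclose 2 further polyphenol oxidases that were also lower in both lines. MpPPO14 (Mp6g19030) had log2 changes of -1.90 in Mpfer-1 and -1.995 in the Mpmri-1-labelled libraries, and MpPPO72 (Mp6g19040) had -1.93 and -2.30 (edgeR, adjusted p between 2.58e-05 and 9.34e-05).

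A second run on chromosome 6 joins Mp6g11720 and Mp6g11750. Mp6g11720 had 15.1, 16.9 and 19.8 CPM in Mpfer-1, against 107, 102 and 126 CPM in Tak-1. It had 17.7, 14.6 and 21.7 CPM in the Mpmri-1-labelled libraries, against 85, 77.8 and 108 CPM in Tak-2. Mp6g11750 was lowered more strongly. It had 0.493, 1.01 and 1.04 CPM in Mpfer-1, against 19.4, 16.7 and 22 CPM in Tak-1. It had 0.571, 0.481 and 0.625 CPM in the Mpmri-1-labelled libraries, against 14.1, 9.68 and 20.5 CPM in Tak-2. The 2 loci between them, Mp6g11730 and Mp6g11740, were as low in the mutant lines but missed the criteria on the wild types. Mp6g11740 had 2.93, 2.79 and 3.75 CPM in Mpfer-1, against 66, 57.8 and 69.1 CPM in Tak-1. It had 1.05, 0.829 and 1.66 CPM in the Mpmri-1-labelled libraries, against 31.9, 22.9 and 39.4 CPM in Tak-2. The locus before the run, Mp6g11700, was higher in both lines, with ratios of 11.1 in Mpfer-1 and 12.6 in the Mpmri-1-labelled libraries. On chromosome 5, Mp5g05430, Mp5g05450 and Mp5g05460 stood in a row. Mp5g05430 had 0.276, 0.353 and 0.311 CPM in Mpfer-1, against 41, 43.2 and 26 CPM in Tak-1. It had 3.59, 1.33 and 2.33 CPM in the Mpmri-1-labelled libraries, against 37.5, 25.2 and 36.2 CPM in Tak-2. The 3 Mpfer-1 libraries were all below the lowest Mpmri-1-labelled one. Mp5g05450 had 0.133, 0.162 and 0.137 CPM in Mpfer-1, against 13, 11.2 and 7.08 CPM in Tak-1. It had 0.252, 0.297 and 0.625 CPM in the Mpmri-1-labelled libraries, against 7.87, 5.05 and 10.2 CPM in Tak-2. Next to them, Mp5g05470 was close to the wild type, with ratios of 1.09 in Mpfer-1 and 1.08 in the Mpmri-1-labelled libraries.

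Several genes around MpPOD154 and MpPOD155 went the other way. MpPAL3 (Mp7g14880), a phenylalanine ammonia-lyase that opens the phenylpropanoid pathway, had 66.9, 51.9 and 39.9 CPM in Mpfer-1, against 1.09, 1.39 and 1.7 CPM in Tak-1. It had 54.6, 56.6 and 55.3 CPM in the Mpmri-1-labelled libraries, against 0.313, 1.19 and 0.331 CPM in Tak-2. The polyketide synthases MpPKS/CHS20, MpPKS/CHS21 and MpPKS/CHS23, interleaved with the 2 peroxidases, had log2 changes of 1.86, 2.27 and 1.96 in Mpfer-1 and 3.55, 4.38 and 3.58 in the Mpmri-1-labelled libraries. MpPAL3 and these 3 genes rose in both lines (edgeR, adjusted p of at most 1.93e-06). MpPKS/CHS22 (Mp7g14940), which lies between the 2 peroxidases at under 1 CPM, passed the test in neither line, with log2 values of 0.24 in Mpfer-1 and 0.82 in the Mpmri-1-labelled libraries (edgeR, adjusted p = 0.672 and 0.208). Likewise Mp8g02320, next to the pair Mp8g02300 and Mp8g02310 on chromosome 8, had 219, 203 and 199.9 CPM in Mpfer-1, against 20.4, 18.9 and 23.2 CPM in Tak-1. It had 119, 165 and 151 CPM in the Mpmri-1-labelled libraries, against 16, 17.1 and 19.6 CPM in Tak-2. Its log2 change was 3.14 in Mpfer-1 and 3.18 in the Mpmri-1-labelled libraries (edgeR, adjusted p = 1.23e-08 and 3.59e-09). Nearness on the chromosome and direction therefore did not go together throughout these runs.

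**Figure D4:**
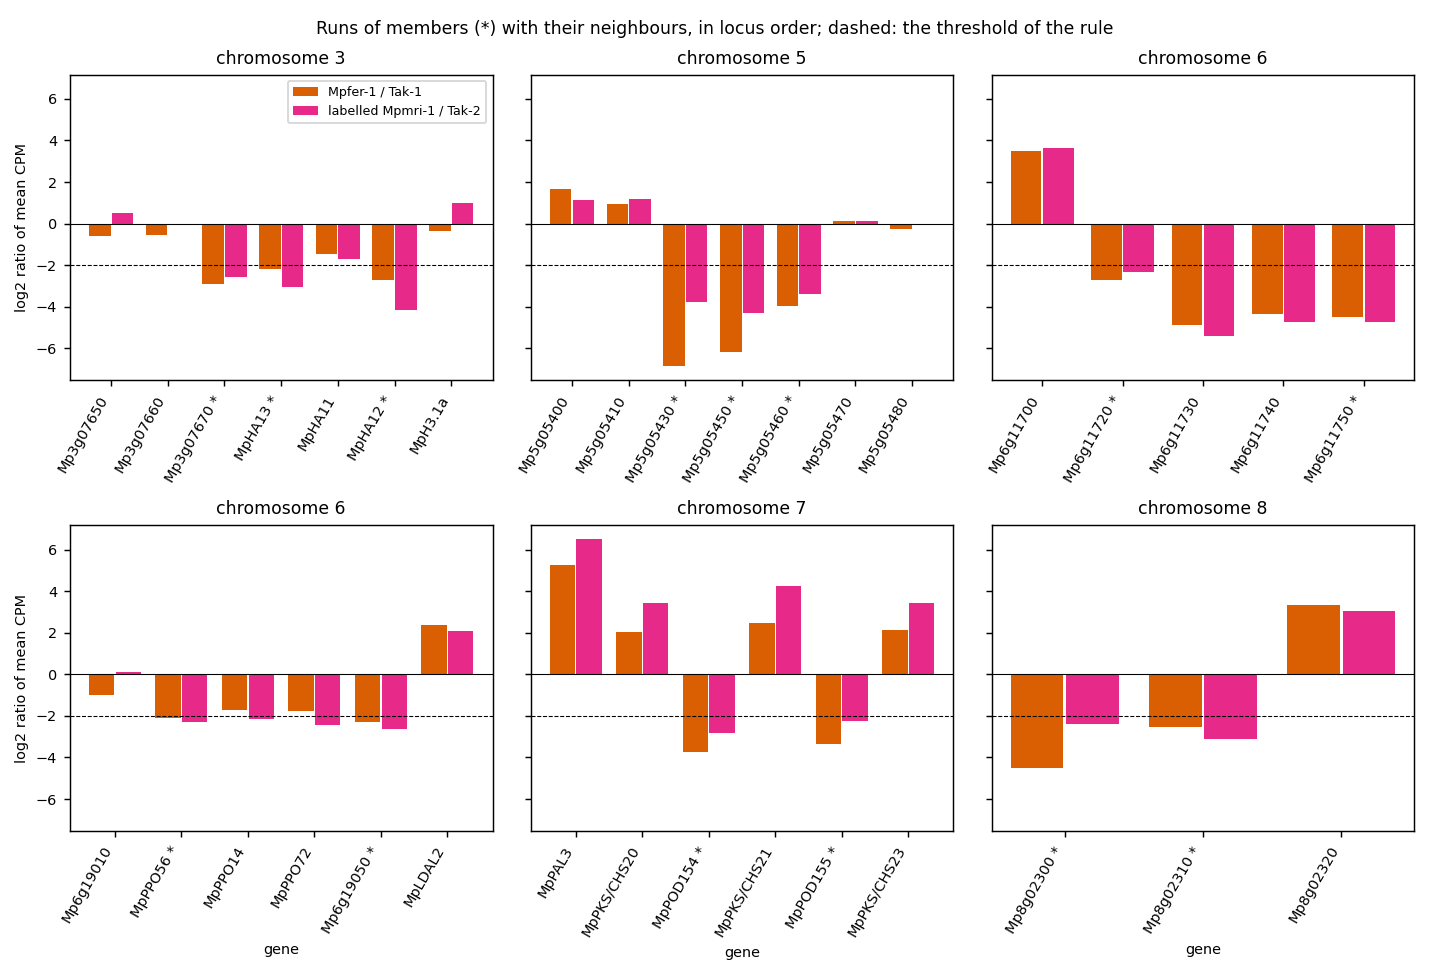
Log2 ratio of mean CPM in Mpfer-1 over Tak-1 (orange) and in the Mpmri-1-labelled libraries over Tak-2 (pink) for 6 of the runs, in locus order, with an asterisk at the 82 genes, a dashed line at a ratio of 0.25 and loci summing to 2 CPM or less over the 2 wild-type means left out. Bars of MpPOD154 and MpPOD155 point down between those of MpPAL3, MpPKS/CHS20, MpPKS/CHS21 and MpPKS/CHS23, which point up, and MpHA11 stays above the dashed line between MpHA13 and MpHA12.

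The remaining runs were pairs. Mp5g16420 and Mp5g16430 had ratios of 0.14 and 0.115 in Mpfer-1 and 0.212 and 0.194 in the Mpmri-1-labelled libraries. Mp7g03980 and Mp7g04020 had 0.0925 and 0.0848 in Mpfer-1 and 0.168 and 0.201 in the Mpmri-1-labelled libraries. The next locus, Mp7g04030, was lower too, with log2 changes of -2.38 in Mpfer-1 and -1.81 in the Mpmri-1-labelled libraries (edgeR, adjusted p = 2.32e-05 and 0.000148). Mp2g23330 and Mp2g23360 had 0.205 and 0.129 in Mpfer-1 and 0.194 and 0.237 in the Mpmri-1-labelled libraries. Between them lies Mp2g23350, which had 2.58, 2.96 and 2.77 CPM in Mpfer-1, against 5.08, 4.71 and 8.17 CPM in Tak-1. It had 4.42, 3.79 and 6.42 CPM in the Mpmri-1-labelled libraries, against 0.939, 1.12 and 1.03 CPM in Tak-2, and so was lower in Mpfer-1 (log2 -1.30, edgeR adjusted p = 0.000703) and higher in the Mpmri-1-labelled libraries (log2 2.37, edgeR adjusted p = 1.21e-05).

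Of the 82 genes, 73 had 1 transcript model and 9 had several. Among the 73, all values were whole numbers for 36, and over 50% of the values were fractional for 28, as when a read is divided between similar genes. These 28 include all 6 peroxidases, MpPPO6, MpPPO8, MpPPO9, MpPPO56, MpHA12, MpPKS/CHS7 and MpCupin70, and the split between such copies is uncertain. MpHA13, MpHCT, both GH16 genes, Mp5g05430 and 8 of the 10 genes with the highest wild-type levels had whole values only. Among the genes with several models, the third model of Mp1g03750 made up 7.30%, 9.04% and 5.81% of the gene's counts in Mpfer-1, against 13.2%, 14.2% and 12% in Tak-1. It made up 4.58%, 3.29% and 9.84% in the Mpmri-1-labelled libraries, against 13.9%, 15% and 14.6% in Tak-2. The share was lower in the mutant libraries without overlap, and the main model carried 84.1% to 91.0% of the counts in Mpfer-1 and 82.3% to 86.4% in Tak-1.

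Each family of the set was read as a whole, with the calls of the fit over all 14044 genes tested (edgeR quasi-likelihood test, adjusted p under 0.05). Genes of the set are counted in these lists, and the rule all but fixes their lower calls. The set gave 6 of the 133 peroxidases tested and 6 of the 40 polyphenol oxidases. It also gave 2 of 16 proton ATPases, 2 of 30 GH16 genes and 1 of 7 aquaporins. Shares and medians of the other genes alone were not computed. Over all genes, 27.1% were called lower and 29.1% higher in Mpfer-1, and 31.1% were called lower and 33% higher in the Mpmri-1-labelled libraries. In each line 81 of the 82 genes were called lower by this fit, which the rule all but fixes and from which nothing is read. The exception in both was Mp5g02220. Genes called lower in both lines made up 16.4% of all genes tested (2298).

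Of 133 peroxidases tested, 77 (57.9%) were lower and 21 higher in Mpfer-1, and 64 (48.1%) were lower and 34 higher in the Mpmri-1-labelled libraries, with 55 lower in both. The median log2 change of the family was -1.03 in Mpfer-1 and -0.77 in the Mpmri-1-labelled libraries, beside 0.02 and 0.0015 over all genes tested. Its summed level nevertheless was higher in the mutants, at 4240 to 4629 CPM in Mpfer-1 against 2730 to 3097 CPM in Tak-1, and 5664 to 5867 CPM in the Mpmri-1-labelled libraries against 1919 to 2316 CPM in Tak-2. Many peroxidase genes were thus lower while the family total was higher. Of 40 polyphenol oxidases tested, 26 (65.0%) were lower in each line and 24 in both, and 7 were higher in Mpfer-1 and 10 in the Mpmri-1-labelled libraries. Their median log2 change was -1.78 in Mpfer-1 and -1.67 in the Mpmri-1-labelled libraries.

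The lists of the other families with a gene in the set gave mixed counts. Of 67 late embryogenesis abundant genes, 58 were higher and 3 lower in Mpfer-1, and 56 were higher and 4 lower in the Mpmri-1-labelled libraries, so that MpLEA-like54 was one of 3 lower in both. The late embryogenesis abundant list had a median log2 change of 6.996 in Mpfer-1 and 5.45 in the Mpmri-1-labelled libraries. Carbohydrate esterases and glycoside hydrolases had 36 lower in each line, with 42 higher in Mpfer-1 and 55 higher in the Mpmri-1-labelled libraries, of 128, and medians of -0.0085 and 0.18. A set of lists was drawn up from the families seen among the 82 genes, and so is no independent evidence. Among these, proton ATPases had 8 of 16 lower and 4 higher in Mpfer-1, and 11 lower and 2 higher in the Mpmri-1-labelled libraries. Of 30 GH16 genes, 13 were lower and 5 higher in Mpfer-1, and 15 were lower and 9 higher in the Mpmri-1-labelled libraries. Aquaporins had 6 of 7 lower and 1 higher in each line, with a summed level of 2974 to 3348 CPM in Mpfer-1 against 6775 to 7270 CPM in Tak-1. Of 24 chalcone synthase-like genes, 19 were higher and 2 lower in Mpfer-1, and 18 were higher and 3 lower in the Mpmri-1-labelled libraries, or 1 lower without any 1 of the Tak-2 replicates. Of 60 cupins, 24 were higher in each line, with 20 lower in Mpfer-1 and 19 lower in the Mpmri-1-labelled libraries. In Mpfer-1 the median log2 change was -0.62 for proton ATPases, -0.82 for GH16 genes, -1.79 for aquaporins, 1.71 for chalcone synthase-like genes and 0.11 for cupins. In the Mpmri-1-labelled libraries these lists had medians of -0.95, -0.67, -2.04, 3.12 and 0.45.

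None of the 82 genes was in the other lists, which cover further wall, transport, metabolic and regulatory families. Of 29 expansins, which loosen walls, 17 were lower in each line, with 6 higher in Mpfer-1 and 4 higher in the Mpmri-1-labelled libraries. Of 92 receptor-like kinases and genes of the MpFER/MpMRI pathway, 36 were lower and 15 higher in Mpfer-1 (9 higher without Tak-1 replicate B), and 32 were lower and 29 higher in the Mpmri-1-labelled libraries. Cytochromes P450 had 25 lower and 47 higher in Mpfer-1, and 15 lower and 62 higher in the Mpmri-1-labelled libraries, of 102. ABC transporters had 22 lower and 26 higher in Mpfer-1, and 20 lower and 27 higher in the Mpmri-1-labelled libraries, of 73. Nitrate, phosphate and ammonium transporters had 8 lower and 15 higher in Mpfer-1, and 7 lower and 14 higher in the Mpmri-1-labelled libraries, of 29. Terpene synthases had 4 of 16 lower in each line, with 3 higher in Mpfer-1 and 6 in the Mpmri-1-labelled libraries. Among transcription factors in Mpfer-1, 14 of 37 bHLH, 1 of 20 AP2/ERF, 4 of 13 WRKY and 4 of 16 MYB genes were lower, and 9, 10, 8 and 6 were higher. In the Mpmri-1-labelled libraries the same lists had 13, 4, 2 and 3 lower, and 8, 12, 10 and 7 higher. Without Tak-1 replicate C the lower AP2/ERF genes in Mpfer-1 numbered 3, and without Tak-1 replicate A the lower MYB genes numbered 1. The median log2 change was lowest for expansins (-0.63 in Mpfer-1 and -0.86 in the Mpmri-1-labelled libraries). Over the other lists without a gene of the set it lay between -0.18 and 0.34 in Mpfer-1 and between -0.13 and 1.22 in the Mpmri-1-labelled libraries.

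The 2 effects were also set against each other, as the log2 effect in the Mpmri-1-labelled libraries minus the log2 effect in Mpfer-1. This difference comes from the same 4 group means as the rule, whose limits on CPM scaled by totals act on its size, so counts and medians over the set are a description and nothing is read from them. The p values of single genes given below carry the same limit. For 25 of the 82 genes (30.5%) the effect was less negative in the Mpmri-1-labelled libraries, beside 21% of all genes tested. For 5 genes (6.1%) it was more negative there, beside 16.3% (edgeR, Benjamini-Hochberg adjusted p under 0.05). With library totals in place of the TMM factors the counts were 14 and 9, so this split depends on the scaling. Over all 14044 genes tested, 5239 were called in either direction with TMM and 6334 with totals. The median difference of the 82 genes was 0.50, beside 0.01 over all genes, and with totals 0.17 beside -0.30. Without adjustment, 37 of the 82 genes had p under 0.05, and the matching count over all genes was not made.

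Mp8g02780 had the largest difference of the 82 genes, 4.74 log2 (SE 0.51, edgeR adjusted p = 5.35e-05). It had 0.241, 0.282 and 0.595 CPM in Mpfer-1, against 80.1, 70.1 and 66.2 CPM in Tak-1. It had 4.9, 2.49 and 7.63 CPM in the Mpmri-1-labelled libraries, against 45.6, 46.8 and 35.1 CPM in Tak-2. It was 194-fold lower in Mpfer-1, from 36 estimated counts over the 3 libraries, and 8.5-fold lower in the Mpmri-1-labelled libraries. Mp5g05430 and Mp8g02300, each in a run, had differences of 3.38 (SE 0.54, edgeR adjusted p = 0.000773) and 2.40 (SE 0.40, edgeR adjusted p = 0.00104). Both were lowered more in Mpfer-1. Mp8g02300 had 1.07, 1.59 and 1.1 CPM in Mpfer-1, against 31.6, 29.8 and 24 CPM in Tak-1. It had 3.97, 2.72 and 5.98 CPM in the Mpmri-1-labelled libraries, against 23.7, 15.1 and 28.3 CPM in Tak-2. Mp5g14220 had a smaller difference of 0.94 (SE 0.14, edgeR adjusted p = 0.000509), which was 0.62 with library totals in place of the TMM factors. It had 7.41, 9.45 and 7.93 CPM in Mpfer-1, against 79.9, 79.8 and 87.2 CPM in Tak-1. It had 16.5, 16.5 and 18 CPM in the Mpmri-1-labelled libraries, against 111, 109.9 and 109 CPM in Tak-2.

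In the other direction Mp8g00430 had a difference of -3.02 log2 (SE 0.31, edgeR adjusted p = 4.11e-05). It had 6.19, 7.57 and 7.3 CPM in Mpfer-1, against 28.1, 35.7 and 36.9 CPM in Tak-1. It had 0.449, 0.943 and 1.28 CPM in the Mpmri-1-labelled libraries, against 51.1, 38.7 and 40.9 CPM in Tak-2. The gene was 48.9-fold lower in the Mpmri-1-labelled libraries and 4.78-fold lower in Mpfer-1. MpPPO8 also had a more negative effect in the Mpmri-1-labelled libraries, with a difference of -0.96 (SE 0.27, edgeR adjusted p = 0.0156), whereas the difference of its neighbour MpPPO9 was 0.52 and did not pass the test (edgeR adjusted p = 0.179). MpPOD154 and MpPOD155 had less negative effects there, by 1.19 and 1.42 (edgeR adjusted p = 0.0253 and 0.0178), and the call of MpPOD154 was lost without Tak-1 replicate A, Mpfer-1 replicate A or B, or replicate A or C of the Mpmri-1-labelled libraries, at values of 0.99 to 1.14. Neither MpHA13 nor MpHA12 passed the test, with differences of -0.55 and -1.10 (edgeR adjusted p = 0.344 and 0.0563).

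**Figure D5:**
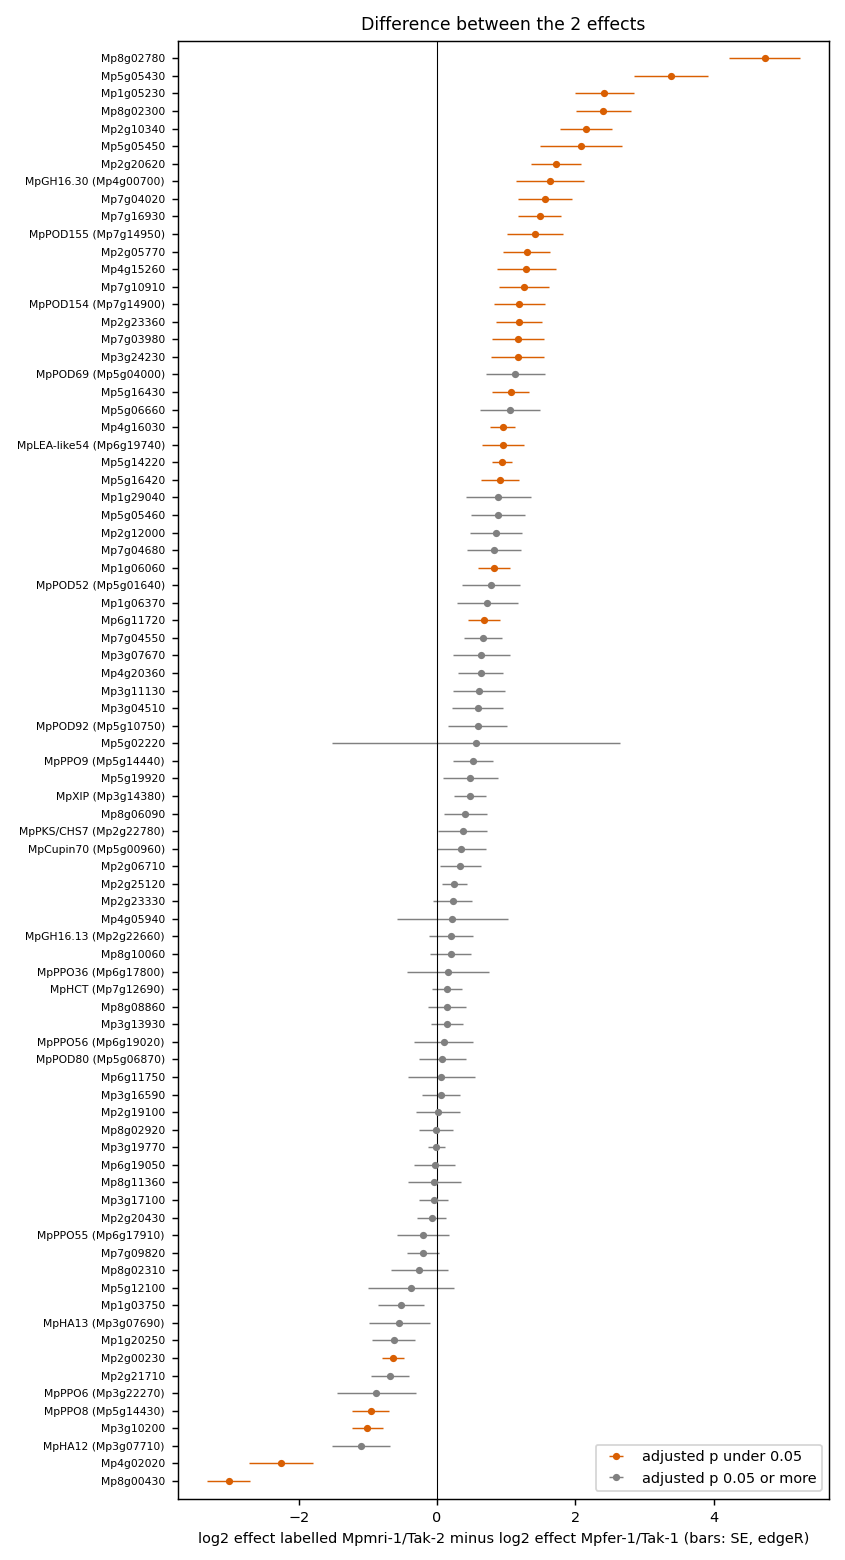
Difference between the 2 effects for each of the 82 genes (log2 effect in the Mpmri-1-labelled libraries over Tak-2 minus log2 effect in Mpfer-1 over Tak-1; bars, SE from edgeR), in orange where the adjusted p was under 0.05. There are 25 orange points to the right of 0 and 5 to the left, and the bar of Mp5g02220 is the widest.

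Markers of other tissues were read beside these values, and their part in the low levels of the 82 genes was not tested. The rhizoid regulator MpRSL1 had 20.8 to 22.8 CPM in Mpfer-1 against 15.1 to 21.4 CPM in Tak-1, and 8.53 to 9.61 CPM in the Mpmri-1-labelled libraries against 8.31 to 9.07 CPM in Tak-2, and passed the test in neither line (edgeR adjusted p = 0.859 and 0.134). The 4 oil body markers summed to 105 to 133 CPM in Mpfer-1 against 49.3 to 68.9 CPM in Tak-1, and to 78.5 to 91.1 CPM in the Mpmri-1-labelled libraries against 50.3 to 61.5 CPM in Tak-2. Of these 4, MpC1HDZ, MpSYP12B and MpMYB02 were higher in both lines (edgeR, adjusted p of 8.77e-05 to 0.0325), and MpERF13 passed in neither. MpRBCS, the small subunit of Rubisco, had 88.3 to 102 CPM in Mpfer-1 against 279.6 to 306 CPM in Tak-1, and 168 to 234 CPM in the Mpmri-1-labelled libraries against 133 to 184 CPM in Tak-2. It was lower in Mpfer-1 (log2 -1.81, edgeR adjusted p = 4.89e-06, below Tak-1 in 3 of 3 libraries) and did not pass the test in the Mpmri-1-labelled libraries (edgeR adjusted p = 0.0507). The 2 gemma cup markers summed to 36.0 to 50.6 CPM in Mpfer-1 against 29.1 to 38.3 CPM in Tak-1, and to 23.7 to 29.5 CPM in the Mpmri-1-labelled libraries against 25.7 to 28.7 CPM in Tak-2. Nearly all of this is MpKARAPPO, which passed in neither line. MpGCAM1 averaged 4.97 CPM in Mpfer-1 against 2.63 CPM in Tak-1 (log2 0.75, edgeR adjusted p = 0.00948), and 2.86 CPM in the Mpmri-1-labelled libraries against 0.369 CPM in Tak-2 (log2 3.09, edgeR adjusted p = 1.35e-06). The 5 meristem markers summed to 222 to 235 CPM in Mpfer-1 against 205 to 242 CPM in Tak-1, and to 135 to 189 CPM in the Mpmri-1-labelled libraries against 199 to 203 CPM in Tak-2. Most of this sum is MpC3HDZ, which was lower in both lines (log2 -0.23 in Mpfer-1 and -0.39 in the Mpmri-1-labelled libraries, edgeR adjusted p = 0.0394 and 0.0019). MpCLE2 was higher in both, with 19.9 CPM in Mpfer-1 against 9.96 CPM in Tak-1 and 10.3 CPM in the Mpmri-1-labelled libraries against 6.16 CPM in Tak-2 (edgeR adjusted p = 0.000249 and 0.000168). MpLAXR was higher in the Mpmri-1-labelled libraries, at 5.34 CPM against 0.764 CPM in Tak-2 (edgeR adjusted p = 5.43e-07), and did not pass in Mpfer-1 (edgeR adjusted p = 0.291), and MpCLE1 and MpYUC2 passed in neither line. The air chamber gene MpNOP1 had 77.1 to 87.3 CPM in Mpfer-1 against 62.7 to 77.4 CPM in Tak-1, and 66.6 to 87.7 CPM in the Mpmri-1-labelled libraries against 65.0 to 68.7 CPM in Tak-2. It was higher in the Mpmri-1-labelled libraries (log2 0.28, edgeR adjusted p = 0.0117) and did not pass in Mpfer-1 (edgeR adjusted p = 0.947). Of the 3 genes of reproductive organs, MpBNB was at 0 in 11 of 12 libraries, and the 3 summed to 4.30 to 6.75 CPM in Mpfer-1 against 4.62 to 4.76 CPM in Tak-1, and to 0.711 to 1.01 CPM in the Mpmri-1-labelled libraries against 0.861 to 0.979 CPM in Tak-2. Most of the male sums is MpFGMYB, which averaged 5.03 CPM in Mpfer-1 and 3.93 CPM in Tak-1. In the female groups it averaged 0 CPM in the Mpmri-1-labelled libraries and 0.0338 CPM in Tak-2.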

How the data were processed

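RNA from thalli with rhizoids was sequenced in 12 libraries, 3 each of Mpfer-1, Tak-1, Mpmri-1 and Tak-2. A stranded mRNA kit and added spike-in RNA were used, per the labels' protocols. FastQC, fastp and DESeq2 are named in the submitters' processing notes. The authors deposited estimated counts for 23399 transcript models, of which 65.5% of values were whole within 1e-09. Neither the quantifier nor the genome build is given in the sources used here.

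Estimated counts were summed over models to 18336 genes, and CPM is the sum scaled to a library total of 1000000, with no correction for length. Symbols came from a table of the assembly MpTak2_v7.1, joined by locus number. Of 17416 identifiers with a counterpart, 90.2% had the same number of isoforms, against 76.7% with the numbering shifted by 1 gene, and 3095 genes had a symbol. Replicates differed by more than sampling noise (chi-square per degree of freedom 5.26 to 122.8).

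Rounded sums entered the quasi-likelihood test of edgeR 4.0.16 (R 4.3.3; glmQLFit, glmQLFTest), with TMM factors of 0.798 to 1.19, the default filter on low counts (14044 genes), 1 mean per group over all libraries, 8 residual degrees of freedom and Benjamini-Hochberg adjustment over all genes tested, called under 0.05. Alternatives were DESeq2 size factors, library totals, no filter on low counts, DESeq2 1.42.0, limma 3.58.1 voom, a replicate block, only the 6 libraries compared, other limits of the rule, and leaving out each library.

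The 82 genes, the lists and the tests were chosen with earlier results of these data known, and 5 lists (proton ATPases, chalcone synthase-like genes, cupins, GH16 and aquaporins) were added after the 82 genes were seen. Named genes are the targeted genes, the 10 with the highest wild-type level, the 10 with the lowest weaker ratio, the 5 with the smallest adjusted p of the difference, runs within 5 loci, up to 20 genes with a symbol, and 3 on each side of the threshold.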

Additional observations from a re-analysis of the deposited data

Results flagged for a closer look

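Of the 52 genes of the set that the rule for named genes covers, 18 had an effect that differed between the 2 lines. The test was that of the difference itself (edgeR's quasi-likelihood fit, p under 0.05 after Benjamini-Hochberg adjustment over all genes). By the same test 5239 of all 14044 genes were called, so the share among the named genes was no higher than over all genes. Each value is the log2 effect in the Mpmri-1-labelled libraries minus the log2 effect in Mpfer-1, so that a positive value marks a gene that was lowered more in Mpfer-1. The genes were chosen on the same group means. Some of them were named because they had the smallest adjusted p of this same difference, so nothing is read from the count. Sex, line and the gene targeted are confounded in the difference and cannot be told apart.

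The effect was more negative in the Mpmri-1-labelled libraries for 3 of them, with -3.02 for Mp8g00430, -0.96 for MpPPO8 (Mp5g14430) and -0.63 for Mp2g00230. It was less negative there for Mp8g02780 (4.74), Mp5g05430 (3.38), Mp8g02300 (2.40), Mp5g05450 (2.08), MpGH16.30 (Mp4g00700, 1.64), Mp7g04020 (1.56) and MpPOD155 (Mp7g14950, 1.42). It was also less negative for MpPOD154 (Mp7g14900, 1.19), Mp2g23360 (1.18), Mp7g03980 (1.17), Mp5g16430 (1.06), MpLEA-like54 (Mp6g19740, 0.95), Mp5g14220 (0.94), Mp5g16420 (0.91) and Mp6g11720 (0.68). Both genes of the pair Mp7g03980 and Mp7g04020, of the pair Mp5g16420 and Mp5g16430 and of the pair MpPOD154 and MpPOD155 were in this list with the same sign. In each of these pairs over 50% of the values were fractional, so reads may be shared within a pair and the 2 genes are not separate evidence.

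Several of these calls were lost when 1 library was left out, with the sign kept. That of Mp5g05450 was lost without replicate C of the Mpmri-1-labelled libraries (1.65), and that of MpGH16.30 (Mp4g00700) without that library (1.29) or Mpfer-1 replicate C (1.31). The call of Mp5g16420 was lost without Mpfer-1 replicate A (0.74) or C (0.85) or Tak-2 replicate A (0.82). That of MpLEA-like54 (Mp6g19740) was lost without Mpfer-1 replicate A or C, Tak-1 replicate A or B, replicate A or C of the Mpmri-1-labelled libraries, or Tak-2 replicate B, at 0.75 to 0.91. That of Mp6g11720 was lost without Mpfer-1 replicate A or B, Tak-1 replicate C, replicate A or C of the Mpmri-1-labelled libraries, or Tak-2 replicate A or B, at 0.56 to 0.66. That of Mp7g03980 was lost without any 1 of the 3 Mpfer-1 libraries, Tak-1 replicate C, replicate A or C of the Mpmri-1-labelled libraries, or Tak-2 replicate A or B, at 0.82 to 1.23.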

How the results depend on the processing

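The number of genes that met the rule was 82, and 152 with a minimum of 1 CPM in the wild types, 17 with a limit of 8-fold in place of 4-fold and 354 with a limit of 2-fold. It was 56 with a minimum of 10 CPM, 99 without the window on the wild types, 98 with group medians, 89 with TMM-scaled CPM (73 of the 82 among them) and 90 with DESeq2 size factors (74 among them). Leaving out each library in turn gave 73 to 105 genes. With library totals in place of TMM factors, 9 of the 82 genes had a more negative effect in the Mpmri-1-labelled libraries (5 with TMM) and 14 a less negative one (25 with TMM). Totals moved the median log2 effect of all genes to 0.20 in Mpfer-1 and -0.13 in the Mpmri-1-labelled libraries. Leaving out each library in turn gave 5 to 7 and 18 to 30 of the 82 genes, limma voom 5 and 22, and the DESeq2 Wald test 7 and 27. The background moved too. Of all genes, 5239 were called for the difference with TMM and 6334 with totals. Leaving out each library gave 4234 to 6308 of all genes, limma voom 5263 and the DESeq2 Wald test 5726. With totals Mp2g23360, MpGH16.30, Mp5g16420, Mp5g16430, Mp6g11720, MpLEA-like54, Mp7g03980 and MpPOD154 lost their call. Over 18 alternatives Mp7g03980 lost it in 10 (adjusted p 0.00735 to 0.108), Mp6g11720 and MpLEA-like54 in 8 each, MpPOD154 in 7, Mp5g16420 in 4, MpGH16.30 in 3, Mp5g05450 in 2, and Mp2g23360 and Mp5g16430 in 1 each. No sign turned, and the other 9 kept their calls. The cause of these losses was not tested. Calls in the lists moved by more than 1.5 times in 17 of 1444 list counts, among them 2 terpene synthases and 1 MYB gene lower in Mpfer-1 with totals.

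The letters A, B and C were checked as a pairing. Deviations from the group means correlated between libraries of the same letter by 0.251, 0.041 and 0.137 in the male pairs and 0.107, 0.081 and 0.218 in the female pairs. Between different letters the values ran from -0.174 to 0.028 in the male pairs, all below the same-letter ones. In the female pairs they ran from -0.199 to 0.116 and overlapped the same-letter ones. No label says what a letter shares, so the main fit did not pair the libraries, and a batch shared by letter was not tested. With the letter as a replicate block, 6 and 25 of the 82 genes and 4943 of all genes were called for the difference (5239 without it), and 3715 lower and 3944 higher genes in Mpfer-1 and 4278 lower and 4557 higher genes in the Mpmri-1-labelled libraries. Depth limits the lowest values: Mp4g05940 rests on 11.8 estimated counts over the 3 Mpfer-1 libraries.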

Other observations

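Some of the 82 genes that the rule for named genes does not reach also differed between the lines, and they were picked after their values were seen. Mp1g05230 had 0.517, 0.564 and 0.651 CPM in Mpfer-1, against 11.8, 11.7 and 14.4 CPM in Tak-1. It had 1.42, 1.15 and 2.61 CPM in the Mpmri-1-labelled libraries, against 9.47, 5.82 and 10.7 CPM in Tak-2. The difference between its 2 effects was 2.42 log2 (SE 0.42, edgeR adjusted p = 0.00135). Mp2g10340 had 0.792, 1.02 and 0.934 CPM in Mpfer-1, against 20.9, 17.3 and 18.6 CPM in Tak-1. It had 2.24, 1.42 and 2.3 CPM in the Mpmri-1-labelled libraries, against 10.7, 7.68 and 15.7 CPM in Tak-2, with a difference of 2.16 (SE 0.38, edgeR adjusted p = 0.00135). Both were lowered more in Mpfer-1. Mp4g02020 went further down in the Mpmri-1-labelled libraries. It had 5.07, 5.4 and 8.67 CPM in Mpfer-1, against 30.7, 25.9 and 35.4 CPM in Tak-1. It had 0.673, 0.503 and 1.69 CPM in the Mpmri-1-labelled libraries, against 28.2, 20.7 and 32.9 CPM in Tak-2, with a difference of -2.26 (SE 0.46, edgeR adjusted p = 0.00344).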
